A study of Mus musculus with 6 samples.

Results

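The early and the late left ventricle under angiotensin II (AngII) were compared through 4 RIP-seq libraries (sequencing of the RNA recovered by immunoprecipitation), 2 from hearts infused for 24 h and 2 from hearts infused for 4 h. They were taken from the 6 samples of the series. At each time an antibody to EZH2 and normal IgG were used on the same lysates, and the change from 4 h to 24 h was measured separately in the IgG libraries and in the anti-EZH2 libraries. Of 46072 genes in the tables, 8748 were above 1 FPKM (fragments scaled to transcript length and to the mapped fragments of the library) in at least 2 of the 4 libraries. A gene was counted as changed when it was past 2-fold in the same direction in both antibodies.

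All mice were male, aged 10 weeks, and 2 were used per group. The AngII dose was 1 mg/kg/min from an osmotic minipump, and Sham mice, labelled untreated, received saline according to the methods of the study. The strain is labelled C57BL/6 for 4 libraries, C57BL/7 for the anti-EZH2 library at 4 h and C57BL/8 for that at 24 h. For each library 2 RIP products were mixed before sequencing, so each time and antibody had 1 library. No test across replicates was therefore possible, no p-value is given, and agreement of the antibodies is agreement within the same mice. The hours of the day at which hearts were collected are not given in the sources used here, so infusion time and time of day cannot be told apart.

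AngII is the effector peptide of the renin-angiotensin system. It raises blood pressure, drives release of adrenal steroids and acts on cardiomyocytes, fibroblasts and vessels through its type 1 receptor. In the first hours of such a load the heart switches on stress-responsive and metabolic regulator genes, whereas remodelling of the contractile apparatus and of the extracellular matrix is a later event. EZH2 is the catalytic subunit of Polycomb repressive complex 2, which methylates histone H3 at lysine 27. The IgG libraries hold RNA that was carried along without a specific target, and neither kind of library is a measurement of total RNA.

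The tissue label was checked on marker genes. Cardiomyocyte markers were abundant in every library: Myl2, the ventricular myosin light chain, was at 3934 and 3294 FPKM at 4 h and 24 h with IgG and at 3181 and 2114 FPKM with anti-EZH2. No member of the skeletal muscle (10 genes), neutrophil (10), lymphocyte (12), mesothelial (8) or epidermal (6) lists passed the filter. The skeletal muscle gene Mylpf was at 34.7 FPKM in the IgG library at 24 h alone and at most 0.37 FPKM in the others. The half-width of the deposited FPKM interval had a median of 46.7% to 69.3% of the FPKM over the 4 libraries. Nuclear protein-coding genes had a median 24 h/4 h ratio of 1.01 with IgG and 0.756 with anti-EZH2, and FPKM were divided by these ratios before changes were calculated. As deposited, without this step, anti-EZH2 changes are lower by 0.40 on the log2 scale. All log2 changes below are of scaled FPKM plus a pseudocount of 1, 24 h minus 4 h, which understates the change of low genes, and the FPKM given beside them are as deposited.

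The promoters of Pdk4 and Mt2 are shown first, because these were the genes past 2-fold in both antibodies in the list of glucocorticoid and stress-responsive genes, with that of Mt1, the neighbour and relative of Mt2. Pdk4 encodes pyruvate dehydrogenase kinase 4, which shuts glucose-derived carbon out of the mitochondrial citric acid cycle. Mt1 and Mt2 encode metallothioneins, small metal-binding proteins that are induced by zinc, oxidants and glucocorticoids. The windows run from 250 bases before to 50 bases after the RefSeq start in GRCm38.p6 (the assembly also called mm10) and lie at chr6:5496229-5496528 on the minus strand (Pdk4), chr8:94178839-94179138 on the plus strand (Mt1) and chr8:94172368-94172667 on the plus strand (Mt2). Capitals mark the letters TGCACNC or TGCGCNC, the core of the metal response element, on either strand.
Pdk4 promoter: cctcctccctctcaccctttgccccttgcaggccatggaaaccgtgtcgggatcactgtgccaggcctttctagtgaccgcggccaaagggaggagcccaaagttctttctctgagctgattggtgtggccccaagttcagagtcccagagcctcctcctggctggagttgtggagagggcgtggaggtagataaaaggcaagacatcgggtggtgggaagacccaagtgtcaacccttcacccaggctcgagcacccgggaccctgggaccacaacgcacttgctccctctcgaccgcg
Mt1 promoter: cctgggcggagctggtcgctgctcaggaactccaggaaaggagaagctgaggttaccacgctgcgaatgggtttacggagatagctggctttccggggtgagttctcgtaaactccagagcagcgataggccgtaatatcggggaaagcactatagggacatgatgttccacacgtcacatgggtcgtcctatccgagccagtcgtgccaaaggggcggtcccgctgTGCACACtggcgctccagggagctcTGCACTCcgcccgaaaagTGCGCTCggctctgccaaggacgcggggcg
Mt2 promoter: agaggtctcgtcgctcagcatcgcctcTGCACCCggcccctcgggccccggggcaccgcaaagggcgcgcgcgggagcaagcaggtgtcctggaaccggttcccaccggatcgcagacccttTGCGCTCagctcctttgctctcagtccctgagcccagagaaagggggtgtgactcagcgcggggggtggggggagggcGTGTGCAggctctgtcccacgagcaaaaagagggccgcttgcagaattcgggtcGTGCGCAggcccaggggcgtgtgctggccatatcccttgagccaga
The core was matched 3 times in Mt1 and 4 times in Mt2 and had no match in Pdk4, and 25.7% of 32851 promoter windows of this length in RefSeq held it. The half-site of the glucocorticoid receptor, TGTTCT on either strand, was in none of the 3 windows and in 19.0% of all windows. A match is a description of the letters and not a binding site, and no match says only that the letters are not in this window.

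Few changes recurred between the antibodies. In all, 102 genes were past 2-fold higher at 24 h in both antibodies (1.17% of those tested) and 142 were past 2-fold lower in both (1.62%). Of these, 41 of the 102 passed the filter on FPKM through the 24 h libraries alone and 88 of the 142 through the 4 h libraries alone, so the filter fixed their direction. In the same 8748 genes, 280 were past 2-fold in opposite directions, more than the 244 that moved in the same direction. With IgG alone 1316 genes were past 2-fold, of which 18.5% moved past 2-fold in the same direction with anti-EZH2. With anti-EZH2 alone 1722 genes were past 2-fold, of which 14.2% did so with IgG. Across the genes tested Pearson's r of the changes was 0.01 and Spearman's rho 0.01, and genes are not independent replicates. At any size, 23.4% of genes were higher at 24 h in both antibodies and 28.6% were lower in both.

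**Figure D1:**
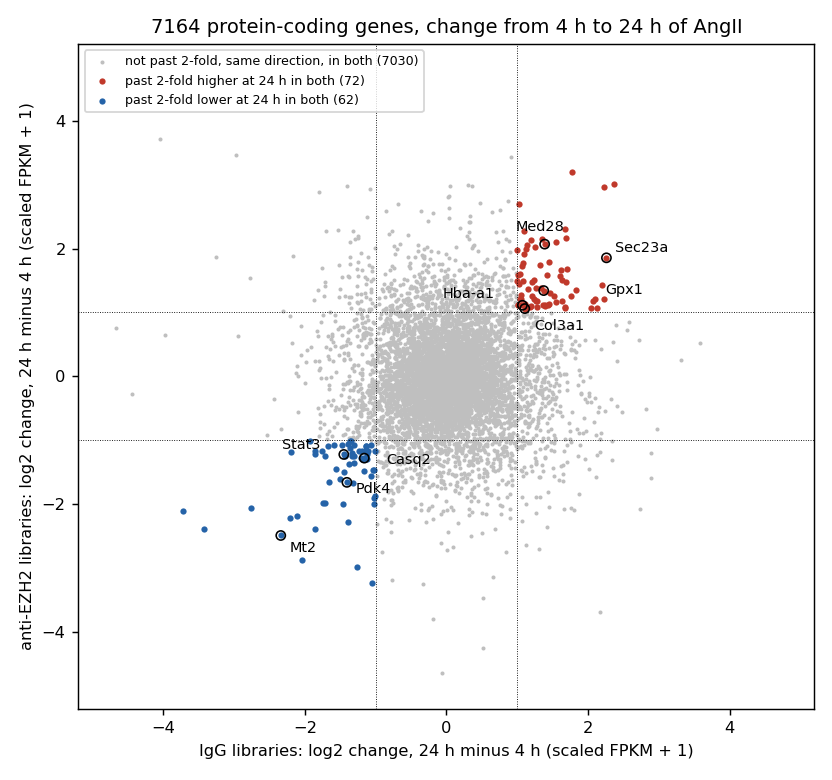
Each point is 1 of 7164 protein-coding genes tested, with the log2 change from 4 h to 24 h in the IgG libraries on the x axis and in the anti-EZH2 libraries on the y axis (scaled FPKM plus 1). Coloured points are past 2-fold in the same direction in both antibodies, 72 higher and 62 lower at 24 h, and Pdk4, Casq2 and Hba-a1 are among them.

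The class and level of a gene went with this. Protein-coding genes gave 72 higher and 62 lower against 146 in opposite directions. The changes of small RNAs were of another order: of 630 tested, 15 were higher, 57 were lower and 108 were past 2-fold in opposite directions, and 63 of the 72 that moved together were listed at 0 in at least 1 of the 4 libraries. An FPKM of such a short RNA can rest on very few fragments, and these genes are given as counts only. Long non-coding RNAs gave 7 higher and 12 lower of 297, and 16 of these 19 were listed at 0 in at least 1 library. None of the 19 had intervals apart in both antibodies, so none is named. Among protein-coding genes the share with the same direction in both antibodies was 52.2% under 3 FPKM (3831 genes), 57.6% from 10 to 30 FPKM (639 genes) and 68.4% over 100 FPKM (114 genes). In this top group 63 genes were lower at 24 h in both antibodies and 15 were higher in both, with median changes of -0.06 with IgG and -0.21 with anti-EZH2. Of the 362 protein-coding genes at or above 30 FPKM, 2 were past 2-fold higher in both (Hba-a1 and Gpx1), 2 were past 2-fold lower in both (Pdk4 and Casq2) and 1 was past 2-fold in opposite directions.

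**Figure D2:**
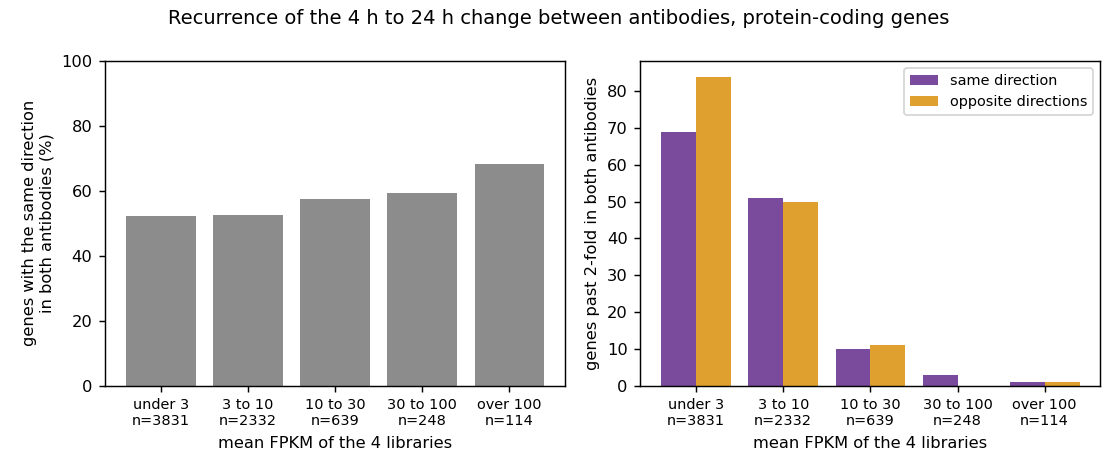
Left, percentage of protein-coding genes whose change from 4 h to 24 h had the same direction in both antibodies, by mean FPKM of the 4 libraries. Right, number of genes past 2-fold in both antibodies, in the same or in opposite directions; under 3 FPKM there were 69 and 84, and from 30 to 100 FPKM 3 and 0.

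The deposited FPKM intervals, which cover the error of counting and assigning fragments but not that of the mice, were used to find the best measured changes. This choice was made after the data were seen. Intervals on the median scale could be compared for 7931 genes, and they lay apart between 4 h and 24 h in the same direction in both antibodies for 32 genes, 12 higher (0.151%) and 20 lower (0.252%). They lay apart in opposite directions for 11 genes. Among the 32 genes, 7 were also past 2-fold in both antibodies: Pdk4, Casq2 and Msra were lower at 24 h, and Hba-a1, Dusp23, Med28 and Sec23a were higher. Sec23a, a subunit of the coat of vesicles that leave the endoplasmic reticulum, was at 1.18 and 9.52 FPKM at 4 h and 24 h with IgG and at 1.54 and 6.19 FPKM with anti-EZH2, with Sham at 2.08 and 1.28 FPKM. Med28, a subunit of the Mediator complex, was at 3.65 and 11.3 FPKM with IgG and at 0.94 and 5.40 FPKM with anti-EZH2, with Sham at 3.73 and 2.43 FPKM. Both 24 h libraries were thus the highest of their antibody for these genes. Dusp23 passed the filter through the 24 h libraries alone, so the filter fixed its direction, and as deposited its change with anti-EZH2 was under 2-fold (0.85). With 2-fold on the median scale and the intervals taken as deposited, 5 genes were past 2-fold with intervals apart, namely Hba-a1 on the higher side and Pdk4, Casq2, Phpt1 and Msra on the lower. Phpt1, a phosphatase of phosphohistidine, was at 7.81 and 1.94 FPKM with IgG and at 9.48 and 3.03 FPKM with anti-EZH2, with Sham at 2.62 and 4.47 FPKM.

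Pdk4 had the best measured difference between the times. It was at 53.0 FPKM at 4 h and 19.6 FPKM at 24 h with IgG, with intervals of 47.7 to 58.5 and 16.0 to 23.8, and at 43.3 and 9.87 FPKM with anti-EZH2, with intervals of 37.2 to 49.5 and 7.20 to 12.9. The log2 change was -1.41 and -1.66. Both Sham libraries were low, at 7.00 FPKM with IgG and 8.09 FPKM with anti-EZH2. The 4 h libraries were therefore far above the other 4, and the 24 h libraries lay between, close to Sham with anti-EZH2 and well above it with IgG. The gene lies at chr6:5483351-5496309 on the minus strand (GENCODE M21, GRCm38). In the series table, the other form in which the FPKM were deposited, Pdk4 changed by -1.62 and -1.73.

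The metallothioneins were also highest at 4 h. Mt2 was at 26.4 and 4.44 FPKM at 4 h and 24 h with IgG and at 26.6 and 2.96 FPKM with anti-EZH2, a log2 change of -2.34 and -2.49. Sham was at 5.88 and 4.46 FPKM, so that both antibodies showed a peak at 4 h and levels at or under Sham at 24 h. The intervals of Mt2 at 4 h did not hold the FPKM and were not used. Mt1, its neighbour on chromosome 8, was at 82.3 and 63.6 FPKM with IgG and at 86.8 and 28.5 FPKM with anti-EZH2, with Sham at 46.5 and 35.3 FPKM. Its log2 change was -0.38 and -1.18, past 2-fold with anti-EZH2 only.

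These genes belong to a list of 27 glucocorticoid and stress-responsive genes, of which 22 were tested. None was past 2-fold higher in both antibodies and 2 were past 2-fold lower (Pdk4 and Mt2). At any size 14 of the 22 were lower at 24 h in both antibodies (63.6%, against 28.6% of all genes) and 6 were higher in both (27.3%, against 23.4%). The median change was -0.26 with IgG and -0.11 with anti-EZH2, beside 0.01 and -0.09 over all genes tested. Some further members, named after their values were seen, had the same early peak in both antibodies. Zbtb16, a transcriptional repressor and a classic glucocorticoid target, was at 7.73 and 4.92 FPKM at 4 h and 24 h with IgG and at 6.93 and 3.63 FPKM with anti-EZH2, with Sham at 2.07 and 3.87 FPKM, and its intervals lay apart in both antibodies. Fkbp5, a co-chaperone of the glucocorticoid receptor, was at 3.49 and 1.62 FPKM with IgG and at 8.03 and 0.66 FPKM with anti-EZH2, with Sham at 1.82 and 1.99 FPKM. Cdkn1a, the cell cycle inhibitor p21, was at 4.64 and 2.40 FPKM with IgG and at 6.22 and 1.47 FPKM with anti-EZH2, with Sham at 2.47 and 1.92 FPKM. Cebpd, a transcription factor of the acute phase, was at 4.47 and 3.21 FPKM with IgG and at 4.48 and 1.71 FPKM with anti-EZH2, with Sham at 1.42 and 1.97 FPKM. Not every member took this course. Glul, glutamine synthetase, was the second most abundant member. It was at 60.2 and 77.6 FPKM with IgG and at 54.5 and 48.5 FPKM with anti-EZH2. Its changes of 0.35 and 0.23 kept it above Sham (32.7 and 30.6 FPKM). Sgk1 (0.28 and 0.46), Ddit4 (0.31 and 0.45) and Errfi1 (0.49 and 0.91) were also higher at 24 h in both antibodies. With anti-EZH2, Tsc22d3 was at 14.2, 12.9 and 12.2 FPKM on the median scale in Sham, at 4 h and at 24 h. Per1 was at 6.71, 6.60 and 2.53 FPKM on this scale, so neither peaked at 4 h with anti-EZH2.

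Several other metabolic genes among the 20 with lower intervals shared the early peak. These were also named after their values were seen. Ppp1r3c, a glycogen-targeting subunit of protein phosphatase 1, was at 10.1 and 5.31 FPKM with IgG and at 9.50 and 4.07 FPKM with anti-EZH2, with Sham at 5.41 and 3.83 FPKM. Dgat2, which makes triglyceride, was at 29.0 and 19.7 FPKM with IgG and at 26.7 and 14.1 FPKM with anti-EZH2. Its Sham libraries were at 17.2 and 11.9 FPKM. Got1, the cytosolic aspartate aminotransferase of the malate-aspartate shuttle, was at 62.4 and 46.7 FPKM with IgG and at 75.8 and 37.6 FPKM with anti-EZH2, with Sham at 35.4 FPKM with either antibody. Ptgds, prostaglandin D2 synthase, was at 48.2 and 27.9 FPKM with IgG and at 40.2 and 16.5 FPKM with anti-EZH2. Its Sham libraries were at 18.7 and 19.7 FPKM. Not all of the 20 had this peak in both antibodies. With anti-EZH2, Fads1, a fatty acid desaturase, was at 1.59, 1.58 and 0.34 FPKM on the median scale in Sham, at 4 h and at 24 h. The mitochondrial gene mt-Co3 was at 3319, 3108 and 2776 FPKM on this scale with anti-EZH2. Of the 20 genes, 13 were above Sham at 4 h in both antibodies on the median scale, and 9 of these were no longer above Sham in both at 24 h. The 4 h libraries enter both differences, so a high value at 4 h raises one and lowers the other.

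**Figure D3:**
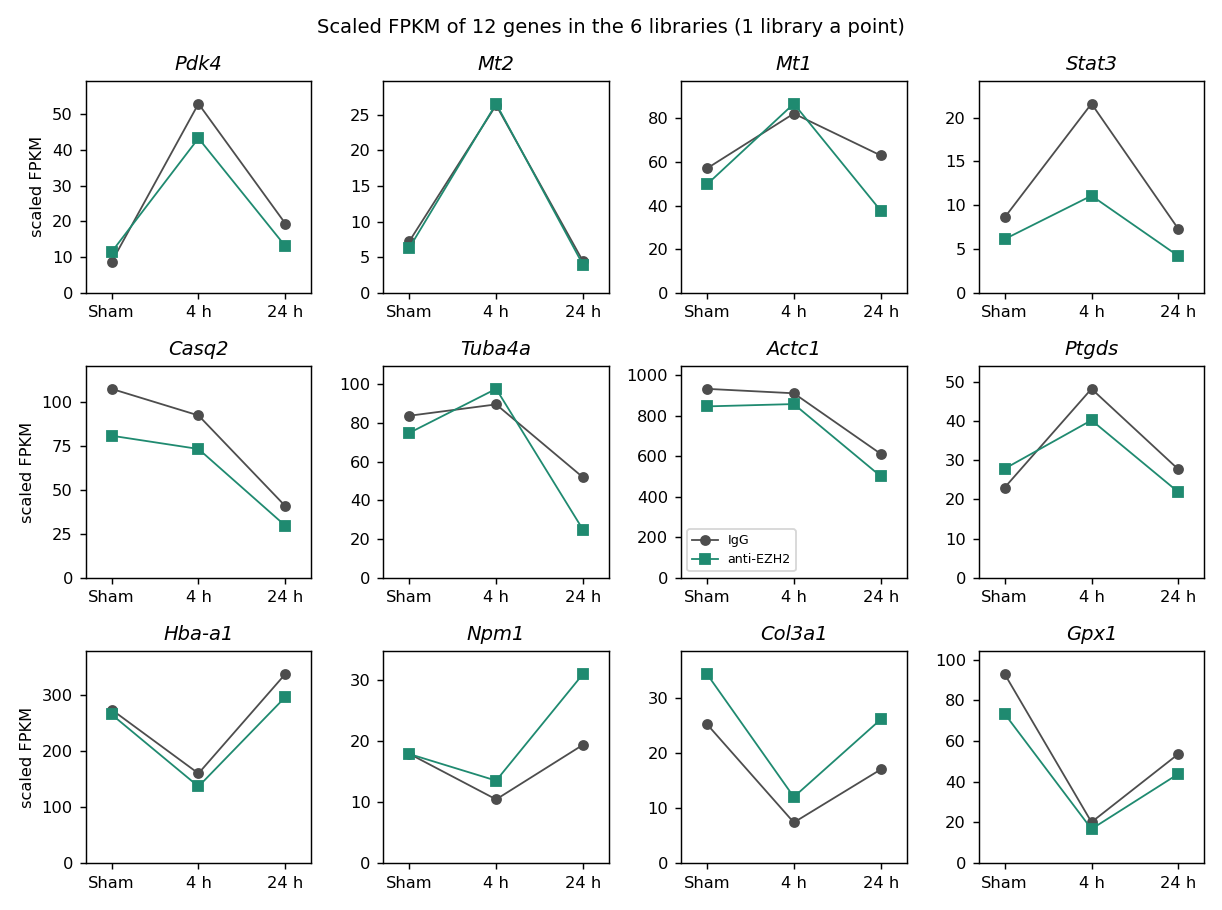
Scaled FPKM of 12 genes (y axis, starting at 0) in Sham, AngII 4 h and AngII 24 h (x axis), with 1 library a point, circles for IgG and squares for anti-EZH2. Pdk4, Mt2, Stat3 and Ptgds peak at 4 h in both antibodies, Casq2, Tuba4a and Actc1 are lowest at 24 h, and Hba-a1, Col3a1 and Gpx1 are lowest at 4 h.

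Inflammatory genes were few. Of 42 acute inflammatory and cytokine genes 12 were tested, and 2 were past 2-fold lower at 24 h in both antibodies and none higher. Stat3, the transcription factor downstream of interleukin 6 family cytokines, was at 21.6 and 7.34 FPKM at 4 h and 24 h with IgG and at 11.1 and 3.16 FPKM with anti-EZH2, changes of -1.45 and -1.22, with Sham at 7.00 and 4.34 FPKM. The 4 h libraries were the highest in both antibodies, but the intervals met with IgG (11.8 to 31.4 at 4 h and 2.76 to 13.3 at 24 h) and with anti-EZH2 (7.64 to 14.5 and 1.44 to 7.79). In the series table Stat3 changed by only -0.52 and -0.94. Lcn2, the acute phase protein lipocalin 2, was at 1.87 and 1.76 FPKM at 4 h, was listed at 0 in both Sham libraries and in the anti-EZH2 library at 24 h, and was at 0.42 FPKM with IgG at 24 h. It passed the filter through the 4 h libraries alone, so the filter fixed its direction. Il6, Il1b and Tnf were listed at 0 in all 4 libraries. Of 37 interferon response genes 12 were tested and none was past 2-fold in both antibodies. At any size 7 of the 12 were higher at 24 h in both (58.3%, against 23.4% of all genes), with medians of 0.31 and 0.27. As deposited, the anti-EZH2 median was 0.02. The most abundant member, the beta-2-microglobulin gene B2m, changed by 0.07 and 0.02, but by -0.84 and -0.87 in the series table.

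Immediate early genes, transcription factors and phosphatases that respond within an hour of a stimulus, did not separate the times. Of 34 genes 15 were tested and none was past 2-fold in both antibodies, and 4 were higher (26.7%, against 23.4% of all genes) and 5 lower (33.3%, against 28.6%) in both at any size. Egr1 was at 0.34 and 0.18 FPKM with IgG and at 0.09 and 0.44 FPKM with anti-EZH2, and Fos was above 0 in the anti-EZH2 library at 4 h only, at 0.59 FPKM. Of 24 circadian clock genes 18 were tested and Per2, a light-responsive repressor of the clock, was past 2-fold higher in both. It was at 0.24 and 1.84 FPKM at 4 h and 24 h with IgG and at 0.29 and 3.50 FPKM with anti-EZH2. The Sham libraries differed far more from each other, at 0.49 FPKM with IgG and 15.01 FPKM with anti-EZH2, and the interval at 24 h ran from 0.05 to 11.7 with IgG, so the change of Per2 is weakly measured. Per2 also passed the filter through the 24 h libraries alone, so the filter fixed its direction. Per1 went the other way, from 9.03 to 7.46 FPKM with IgG and from 6.60 to 1.92 FPKM with anti-EZH2.

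Among the calcium handling, sarcomere and fetal program genes tested, Casq2 alone was past 2-fold lower at 24 h in both antibodies. Casq2 encodes cardiac calsequestrin, the calcium-binding protein of the sarcoplasmic reticulum, and was the called member of 33 calcium handling and ion channel genes tested. It was at 92.1 FPKM at 4 h and 41.0 FPKM at 24 h with IgG, with intervals of 80.1 to 104.4 and 32.9 to 49.2. With anti-EZH2 it was at 73.1 and 22.3 FPKM, with intervals of 64.1 to 82.1 and 17.2 to 27.5. The log2 change was -1.16 and -1.28, and -1.55 and -1.20 in the series table. Sham was at 87.4 and 57.2 FPKM, so that both 24 h libraries were the lowest of their antibody and the 4 h libraries lay near Sham. The gene lies at chr3:102086415-102146514 on the plus strand. Atp2a2, the calcium pump SERCA2, changed by -0.04 and -0.21, and Pln, its inhibitor phospholamban, by 0.02 and 0.17. In the series table Atp2a2 changed by -0.47 and -0.55 and Pln by -1.81 and -1.49, so the 2 forms of the FPKM differ for Pln. Gja1, the gap junction protein connexin 43, had higher intervals at 24 h in both antibodies, from 12.7 to 18.0 FPKM with IgG and from 9.10 to 11.2 FPKM with anti-EZH2.

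Cytoskeletal genes of the cardiomyocyte were also lower at 24 h, by less than 2-fold in at least 1 antibody. Actc1, cardiac alpha-actin, was at 911.9 and 618.4 FPKM with IgG and at 858.6 and 379.4 FPKM with anti-EZH2, changes of -0.57 and -0.77 with intervals apart in both, and Sham was at 761.3 and 601.6 FPKM. Tuba4a, an alpha-tubulin, was at 89.7 and 52.4 FPKM with IgG and at 97.7 and 18.8 FPKM with anti-EZH2, changes of -0.78 and -1.93. Of 17 genes tested in the fetal gene program of hypertrophy, none was past 2-fold in both antibodies, 9 were lower in both at any size (52.9%, against 28.6% of all genes) and 4 were higher in both (23.5%, against 23.4%), with medians of -0.22 and -0.05. The natriuretic peptide genes, the usual markers of cardiac load, had lower FPKM at 24 h, with intervals that met in both antibodies. Nppa was at 10.6 and 5.14 FPKM with IgG and at 10.2 and 5.36 FPKM with anti-EZH2, and Nppb at 17.4 and 8.15 FPKM with IgG and at 18.8 and 9.39 FPKM with anti-EZH2. Their changes were -0.93 and -0.47 for Nppa and -1.02 and -0.56 for Nppb, and the intervals of Nppb were 9.99 to 19.7 and 3.69 to 11.7 with IgG and 11.5 to 19.9 and 4.82 to 11.8 with anti-EZH2. Nppa was at 20.2 and 10.9 FPKM in Sham, above its level at 4 h. Other atrial markers were high in Sham too: the atrial myosin light chain gene Myl7 was at 14.3 FPKM with IgG and 12.2 FPKM with anti-EZH2, and Myl4 at 9.50 and 6.57 FPKM, whereas both were at most 0.56 FPKM in the 4 AngII libraries. The summed FPKM of the 8 atrial genes, of which 2 were tested, was 49.9, 16.6 and 17.2 in Sham, at 4 h and at 24 h with IgG and 34.4, 16.1 and 8.67 with anti-EZH2. Stard10 made up 11.1 of the 17.2 FPKM at 24 h with IgG, up from 4.52 FPKM at 4 h, while Nppa fell. With anti-EZH2 Stard10 went from 4.59 to 1.79 FPKM. Sln and Bmp10, also among the 8 atrial genes, were listed at 0 in every library. The part of atrial tissue in the Nppa values was not tested. Ankrd1, a stretch-responsive cofactor, changed by 0.33 and 0.29. Of 30 sarcomere and Z-disc genes tested none was past 2-fold in both, 15 were lower (50%) and 9 higher (30%) in both, against 28.6% and 23.4% of all genes, and the intervals of Actc1, Myl3 and Tpm1 were lower and those of Fhod3, a sarcomere formin, higher. For Tpm1 and Myl3 this was a change of -0.15 to -0.24 in genes of at least 634.2 FPKM in each of the 4 libraries. In the series table Tpm1 went the other way, by 0.55 with IgG and 0.78 with anti-EZH2, whereas Actc1 changed by -0.22 and -0.43. The share of all genes is not matched for level: of 362 protein-coding genes at or above 30 FPKM, 163 were lower and 62 higher in both.

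Erythroid transcripts were higher at 24 h. Of 10 erythroid genes listed 8 had an entry and 6 were tested. All 6 were higher at 24 h in both antibodies (against 23.4% of all genes), 2 of them past 2-fold in both, and the medians were 1.14 with IgG and 0.84 with anti-EZH2. Hba-a1, an adult alpha-globin gene at chr11:32283511-32284465 on the plus strand, was at 159.6 and 340.3 FPKM with IgG, with intervals of 141.4 to 178.0 and 309.3 to 371.3. With anti-EZH2 it was at 136.4 and 223.8 FPKM, with intervals of 123.4 to 149.4 and 201.5 to 246.2. The changes were 1.07 and 1.11 on the median scale, the change with anti-EZH2 was under 2-fold as deposited (0.71), and Sham lay between the times at 223.0 and 188.1 FPKM. Its near-identical copy Hba-a2 changed by 1.21 and 0.99, Hbb-bs by 1.35 and 0.60 and Hbb-bt by 1.06 and 0.69. These copies can share reads, so their split is uncertain and they are not independent. The summed FPKM of the list was 625.3 and 1457 at 4 h and 24 h with IgG and 588.2 and 811.6 with anti-EZH2. In such bulk tissue more cells of a type and more RNA per cell cannot be told apart, and the part of residual blood in other changes was not tested.

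Col3a1, which encodes the alpha-1 chain of type III collagen, was the called member of 34 extracellular matrix genes tested. It was at 7.37 and 17.2 FPKM at 4 h and 24 h with IgG and at 12.02 and 19.8 FPKM with anti-EZH2, changes of 1.11 and 1.06 on the median scale, and the change with anti-EZH2 was under 2-fold as deposited. The Sham libraries were the highest at 20.6 and 24.5 FPKM, so the 4 h libraries were the low ones. The matrix list as a whole did not follow: 13 of 34 members were lower at 24 h in both antibodies (38.2%, against 28.6% of all genes) and 5 were higher in both (14.7%, against 23.4%), with medians of -0.12 and -0.23. Col4a1, a basement membrane collagen, was at 10.6 and 6.78 FPKM with IgG and at 11.1 and 5.44 FPKM with anti-EZH2, with lower intervals in both. Bgn, the proteoglycan biglycan, was at 35.3 and 24.3 FPKM with IgG and at 23.0 and 11.4 FPKM with anti-EZH2. Dcn, decorin, changed by -0.12 and -0.02, but by -1.04 and -0.82 in the series table.

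Among 30 redox genes tested, Gpx1 was past 2-fold higher and Mt2 past 2-fold lower in both antibodies. Gpx1, the cytosolic glutathione peroxidase, was at 20.1 and 54.2 FPKM with IgG and at 16.7 and 33.2 FPKM with anti-EZH2, changes of 1.37 and 1.34 on the median scale, with Sham at 75.9 and 52.2 FPKM. As deposited its change with anti-EZH2 was 0.95, under 2-fold. Its intervals were very wide, from 10.8 to 617.0 at 24 h with IgG, and met between the times. Catalase (Cat) was at 16.4 and 23.1 FPKM with IgG and at 16.0 and 17.3 FPKM with anti-EZH2, changes of 0.46 and 0.49. Gpx3, the secreted peroxidase, changed by 1.03 with IgG and 0.18 with anti-EZH2.

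Changes past 2-fold in genes of energy metabolism seldom recurred between the antibodies. Of 39 fatty acid oxidation genes tested only Pdk4 was past 2-fold in both antibodies, and 15 were lower (38.5%, against 28.6% of all genes) and 6 higher (15.4%, against 23.4%) in both at any size. Fabp3, the heart fatty acid-binding protein, changed by -0.33 and -0.43 and Lpl, lipoprotein lipase, by 0.03 and -0.11. Of 39 glycolysis and citric acid cycle genes tested none was past 2-fold in both, and 18 were lower (46.2%) and 6 higher (15.4%) in both. Aldoa changed by -0.02 and 0.03, but by 0.38 and 0.71 in the series table. The 81 nuclear-encoded subunits of oxidative phosphorylation held none past 2-fold in both in the same direction, but 46 were lower in both (56.8%, against 28.6% of all genes) and 4 were higher (4.94%, against 23.4%), with medians of -0.06 and -0.31. Of the 13 mitochondrially encoded protein genes 10 were lower in both (76.9%) and none was higher, with medians of -0.38 and -0.16 and a summed FPKM of 38692 and 30516 with IgG and 32170 and 22335 with anti-EZH2. The share of all genes used here is not matched for level. Of the 362 protein-coding genes at or above 30 FPKM, 163 were lower in both and 62 higher in both. Over 100 FPKM, 63 of 114 were lower in both and 15 higher in both. The part of level in the shares of these lists was not tested.

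Growth and chromatin lists held no gene past 2-fold in the same direction in both antibodies. These were cell cycle (8 genes tested), heat shock and unfolded protein response (33), ribosome biogenesis (33), cytosolic ribosomal proteins (82), renin-angiotensin system (5) and Polycomb with H3K27 demethylases (16). Npm1, the nucleolar chaperone nucleophosmin, was an exception in part: it was at 10.4 and 19.6 FPKM with IgG and at 13.5 and 23.5 FPKM with anti-EZH2, changes of 0.84 and 1.14 with intervals apart in both, and past 2-fold with anti-EZH2 only. As deposited its change with anti-EZH2 was under 2-fold, and in the series table Npm1 changed by only 0.20 with IgG and -0.05 with anti-EZH2. Dnaja4, a co-chaperone of the Hsp70 family outside these lists that was named after its values were seen, was at 5.48 and 14.5 FPKM with IgG and at 4.24 and 6.80 FPKM with anti-EZH2. Ezh2 itself was at 1.05 and 2.06 FPKM with IgG and at 1.19 and 0.66 FPKM with anti-EZH2, opposite directions at a level close to the filter. Its partners Eed and Suz12 changed by -0.09 and -0.79 and by -1.01 and 0.16. Agtr1a, the type 1 AngII receptor gene, changed by 0.74 and 0.06.

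**Figure D4:**
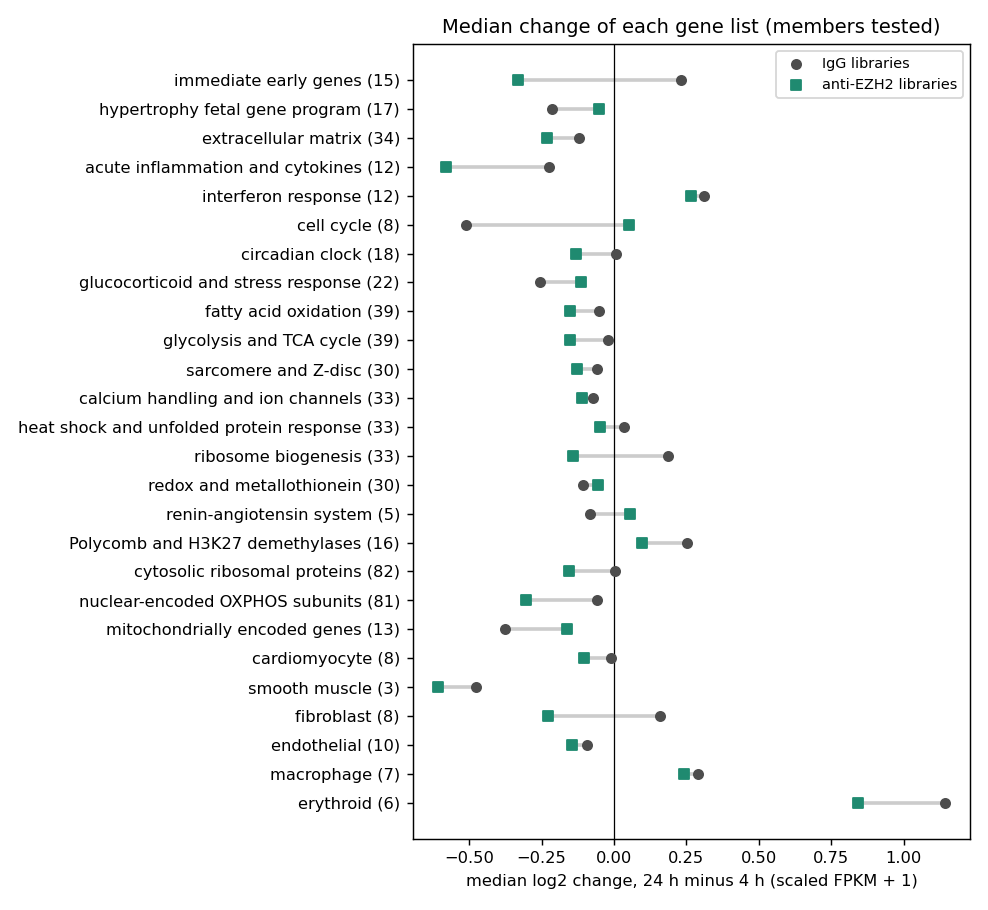
Median log2 change from 4 h to 24 h (x axis, scaled FPKM plus 1) of the gene lists with at least 3 members tested (y axis, number tested in brackets), circles for IgG and squares for anti-EZH2. Erythroid genes stand highest at 1.14 and 0.84, and the medians of immediate early, cell cycle and ribosome biogenesis genes lie on opposite sides of 0 in the antibodies.

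Sham did not hold one position. Of the 62 protein-coding genes past 2-fold lower at 24 h in both antibodies, Sham was nearer to 24 h in both antibodies for 21, nearer to 4 h in both for 18 and differed between the antibodies for 23. Pdk4, Mt2, Stat3 and Lcn2 were of the first kind and Casq2 was of the second. Of the 72 that were higher at 24 h, Sham was nearer to 24 h in both for 13, nearer to 4 h in both for 30 and differed for 29. Hba-a1, Gpx1 and Col3a1 were among the 13. The Sham libraries are as single as the others, and these positions are descriptions.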

How the data were processed

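RIP-seq libraries were made from left ventricles with a stranded kit. The authors used TopHat2 with mm10 and deposited FPKM, once per library and once in a table of the whole series. The FPKM program and the annotation behind it are not given in the sources used here. The deposited tables for each library also hold other columns, with an interval and a status for each FPKM. The depth of the libraries is unknown. Rows of 1 gene were summed, and genes listed as failed were left out. Intervals that did not hold their FPKM were not used. Genes were matched by Ensembl identifier to GENCODE M21 (GRCm38), and 935 of 46072 had no entry.

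Within an antibody, FPKM were divided by the median ratio to 4 h over 4522 nuclear protein-coding genes above 1 FPKM in all 4 libraries. Genes above 1 FPKM in at least 2 libraries were tested, and log2 changes had a pseudocount of 1. With 1 library a group there was no test. Calculations used Python 3.11.15, numpy 2.4.6 and pandas 2.3.3, and the procedure was tested on simulated data. Members and lists were chosen with earlier results of these data known. Genes named were up to 15 each way past 2-fold with deposited intervals apart and at least 5 FPKM, called list members (up to 8), the 3 most abundant members of each list, up to 5 non-coding genes each way, and Ezh2, Eed, Suz12 and Agtr1a; others were named after their values were seen. The alternatives were 15 planned settings and 2 chosen after seeing the data. Promoters came from RefSeq, and 5615 of 8748 genes tested matched by symbol.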

Additional observations from a re-analysis of the deposited data

Results flagged for a closer look

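In the gene lists, 4 genes tested were past 2-fold in opposite directions in the IgG and the anti-EZH2 libraries. Over all 8748 genes tested 280 were so, and 146 of the 7164 protein-coding genes. With 1 library each, the difference between the antibodies was not tested, and no cause was examined. Col15a1, a basement membrane collagen, changed by -1.07 with IgG and by 1.49 with anti-EZH2. Nob1, a factor of ribosome maturation, changed by -1.21 and 1.30, and it was listed at 0 with IgG at 24 h. Gclm, a subunit of the enzyme that starts glutathione synthesis, changed by 1.06 and -2.27. Cox4i2, a hypoxia-responsive cytochrome oxidase subunit, changed by 1.86 and -1.25.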

How the results depend on the processing

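With 1 library a group and no replicates, libraries could be left out only by antibody: with IgG alone 708 genes were higher and 608 lower at 24 h, and with anti-EZH2 alone 678 and 1044. Without scaling 64 genes were higher (179 lower). A pseudocount of 0.1 gave 231 higher and 294 lower, and with no pseudocount 226 were higher. In the series table, which kept 5167 genes, 90 were lower. With an FPKM above 1 in all 4 libraries 33 were higher and 25 lower, and with an FPKM above 5 in at least 2 libraries 44 and 65. At 1.5-fold 321 were higher and 413 lower, and at 4-fold 14 and 42. Protein-coding genes gave 62 lower and transcripts of at least 200 nt gave 78 lower. With 2-fold and deposited intervals apart 1 was higher and 4 were lower. As settings chosen after seeing the data, intervals apart at any fold gave 12 higher and 20 lower, and protein-coding genes of at least 30 FPKM gave 2 and 2. The other settings kept the counts within 1.5 times. Without scaling, the median of protein-coding genes with anti-EZH2 is lower by 0.40 on the log2 scale, and the share of higher calls is 64 of 243 against 102 of 244. No called gene that is named turned direction in the mean of the antibodies under any setting run. Of the 11 named called genes 10 had an entry in the series table, all 10 kept their direction in both antibodies and 4 were past 2-fold in both. No paired analysis was possible because each group had 1 library.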

Other observations

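Several of the largest changes shared by the antibodies had wide intervals and lay outside the lists. They were named after their values were seen. Ran, the GTPase of nuclear transport, was at 45.2 and 11.9 FPKM at 4 h and 24 h with IgG and at 16.5 and 1.78 FPKM with anti-EZH2, with Sham at 32.5 and 21.3 FPKM. Its change was -1.85 and -2.39, and its interval at 4 h with IgG ran from 16.1 to 74.3 FPKM. Myo18a, an unconventional myosin, was at 10.3 and 37.4 FPKM with IgG and at 11.5 and 22.0 FPKM with anti-EZH2, with Sham at 8.20 and 11.4 FPKM. Kat2b, the histone acetyltransferase PCAF, was at 10.6 and 23.7 FPKM with IgG and at 3.10 and 9.87 FPKM with anti-EZH2. Sbds, a factor of ribosome maturation, was at 3.56 and 13.2 FPKM with IgG and at 4.79 and 13.2 FPKM with anti-EZH2.

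Ccnd2, which encodes cyclin D2, differed widely between the antibodies: it was at 179.3 FPKM in the IgG library of Sham, 9.88 at 4 h and 60.2 at 24 h, but at 10.7, 7.23 and 3.46 FPKM with anti-EZH2. The macrophage list, of which 7 of 15 genes were tested, had medians of 0.29 and 0.24, and its summed FPKM was 39.4 and 43.6 with IgG and 34.1 and 29.7 with anti-EZH2. Smooth muscle actin Acta2 was at 5.42 and 3.65 FPKM with IgG and at 3.73 and 1.59 FPKM with anti-EZH2.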
